A study of Mus musculus with 97 samples.

Results

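Messenger and other RNA of sorted G2 cells was compared with that of sorted late G1 cells, both after auxin, in mouse embryonic stem (ES) cells whose Sox2 protein can be degraded on demand. The comparison rests on 6 RNA libraries, 3 of G2 and 3 of late G1, chosen by their labels, among 18 RNA libraries and 97 libraries of all kinds in the study. It covers the 16011 genes of 37620 in the count table that passed a filter on low counts. The study asked what losing Sox2 does along the cell cycle, beside how transcription factors and nucleosomes behave in mitosis.

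All cells carried Sox2 fused to an auxin-inducible degron (the line is labelled Sox2-Aid), a tag through which the plant hormone auxin sends the fusion protein to destruction. They were kept on gelatine in serum and LIF, a cytokine that holds ES cells undifferentiated, and the inhibitors PD0325901 and CHIR99021 were added "when required", without a statement of which cultures had them. The 6 libraries come from cells given 0.5 mM auxin for 3 h, with 20 µM of the DNA dye Hoechst in the last 20 min. Cells were sorted on Hoechst and GFP into early G1, late G1 and G2, and what the GFP reports is not given in the sources used here. The 6 libraries of G2 and late G1 cells without auxin, which carry the same degron, serve to ask whether the change between phases differed with auxin. The 3 early G1 libraries with auxin give a further level. Nothing in the labels says whether the 3 libraries of a group came from separate cultures or how many clones the line represents, so p-values measure the spread between these libraries. The degradation of the Sox2 protein was not measured in these files.

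In late G1 a cell makes what it needs to copy its DNA: E-type cyclins with Cdk2 push it past the G1/S boundary, origins are loaded with the Mcm helicase, and with the start of S phase histone genes are switched on to package the new DNA. After replication, in G2, transcription driven through the MuvB complex, B-Myb and FoxM1 raises the proteins of mitosis. These include cyclin B with Cdk1, Polo and Aurora kinases, spindle motors, kinetochore proteins and the anaphase-promoting complex. ES cells are known for a short G1 and for weak periodicity of some cell-cycle regulators. Many promoters of G2 genes hold a cell-cycle genes homology region (CHR) near the transcription start together with CCAAT boxes, which bind NF-Y, while promoters of G1/S genes often hold E2F sites.

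The promoters of the mitotic genes with the smallest p-values are shown first, since these genes carry the main finding, and they are followed by the 2 with the smallest p among called histone and origin licensing genes. Each run goes 5′ to 3′ from 130 bases before to 25 bases after the RefSeq start (GRCm38.p6), in lower case, with matches to the CHR (TTTGAA) and to CCAAT, on either strand, in capitals. On the reverse strand they read TTCAAA and ATTGG.
Aspm (chr1:139454643-139454797, + strand): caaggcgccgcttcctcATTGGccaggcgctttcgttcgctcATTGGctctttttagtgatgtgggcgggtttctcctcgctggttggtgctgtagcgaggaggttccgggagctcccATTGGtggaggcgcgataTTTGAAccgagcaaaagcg
Nusap1 (chr2:119618168-119618322, + strand): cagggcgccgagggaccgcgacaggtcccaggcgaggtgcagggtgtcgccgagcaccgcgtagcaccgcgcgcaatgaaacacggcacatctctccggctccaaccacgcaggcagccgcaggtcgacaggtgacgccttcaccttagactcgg
Prc1 (chr7:80294321-80294475, + strand): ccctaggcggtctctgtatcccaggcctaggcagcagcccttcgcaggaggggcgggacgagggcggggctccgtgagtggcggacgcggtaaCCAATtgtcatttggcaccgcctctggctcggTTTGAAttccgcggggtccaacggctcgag
Cenpa (chr5:30666756-30666910, + strand): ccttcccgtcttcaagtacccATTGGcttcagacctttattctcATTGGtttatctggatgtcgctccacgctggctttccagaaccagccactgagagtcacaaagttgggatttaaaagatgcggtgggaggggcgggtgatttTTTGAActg
Dbf4 (chr5:8422692-8422846, - strand): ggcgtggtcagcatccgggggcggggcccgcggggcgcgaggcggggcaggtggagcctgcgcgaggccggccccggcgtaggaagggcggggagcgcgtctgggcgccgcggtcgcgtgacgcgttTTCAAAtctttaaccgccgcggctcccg
Hist1h4h (chr13:23530914-23531068, + strand): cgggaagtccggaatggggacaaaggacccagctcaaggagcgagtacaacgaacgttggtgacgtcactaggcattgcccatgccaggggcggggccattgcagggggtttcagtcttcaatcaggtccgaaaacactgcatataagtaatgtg

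The promoters of Aspm, Prc1 and Cenpa each held a CHR match within 17 bases of the start and at least 1 CCAAT match upstream of it. Those of Nusap1 and the histone gene Hist1h4h held neither, and Dbf4, the only member of the replication lists that was higher in G2, held a CHR match on the reverse strand 3 bases before its start. The counts over all promoters follow with the mitotic genes.

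Total counts of the 6 libraries ran from 28539463 to 37587322. Genes that mark ES cells were present in both phases: the summed level of 15 identity genes was 977 to 1124 TPM in late G1 and 1000.2 to 1158 in G2, and 1 of them was called higher (4 with the replicate block). None of Sox2, Nanog, Pou5f1 (Oct4) and Esrrb differed between the phases by the test. Sox2 transcript stood at 330, 394 and 413 CPM (counts scaled to a common library size after TMM adjustment) in late G1 libraries 1, 2 and 3 and at 314, 365 and 345 in G2, and the groups overlapped (log2 fold change -0.15 ± 0.14 SE, adjusted p 0.638). Since auxin acts on the protein, this transcript checks neither the treatment nor the labels. Of 15 fibroblast and feeder markers, 7 passed the filter, and their summed level over all 15 was 0.67 to 1.49 TPM (the authors' values, scaled by gene length and library) in late G1 and 1.05 to 1.64 in G2, with 2 markers at 0 in all 6 libraries. The transcription factor Twist1 was the one member called, at 0.612, 0.856 and 0.642 CPM in late G1 and 2.15, 2.21 and 1.77 in G2.

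G2 cells had 557 genes higher and 389 lower than late G1 cells at an adjusted p under 0.05 (edgeR quasi-likelihood test, Benjamini-Hochberg over all genes tested), which is 3.48% and 2.43% of the genes tested and 5.91% in all. Of these 946 genes, 939 had no overlap between the groups in CPM, while over all genes tested 12.1% lay wholly higher and 11.2% wholly lower in G2. With the replicate number as a block, 1576 were higher (9.84%) and 1257 lower (7.85%), and 945 of the 946 calls were among them. On log2(TPM + 1) with limma, 143 were higher and 43 lower, so that 76.9% of calls were higher against 58.9% on counts. Most changes were small: 277 of the higher and 216 of the lower genes moved under 1.5-fold, and 117 and 80 moved 2-fold or more. Of those 80, 49 were replication-dependent histone genes, and of the 117, 36 belonged to the lists of mitotic genes. Leaving out 1 of the 6 libraries gave 578 to 801 calls, and the count fell by over 1.5 times without G2 library 1 (584) or 3 (587) and without late G1 library 1 (580) or 2 (578). CPM are shares of a library, so neither the RNA content of a G2 cell nor a mixture of cells within a sorted fraction can be read from them: fewer cells of a kind and less RNA per cell cannot be told apart.

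Many genes of mitosis rose. In 6 lists that cover mitotic entry, mitotic kinases, the anaphase-promoting complex, the spindle and cytokinesis, kinetochores, and condensin, cohesin and topoisomerase II, 87 of 184 tested members were higher in G2 and 2 lower, against 3.48% and 2.43% of all genes. Together these lists held 1.76%, 1.90% and 1.81% of counts in late G1 libraries 1, 2 and 3 and 2.60%, 2.79% and 2.65% in G2. G2 over late G1 was 1.48, 1.47 and 1.47 in libraries of number 1, 2 and 3 (exact two-sided permutation p 0.1 over 3 against 3 libraries, the smallest this design allows). Leaving out any 1 of the 6 libraries gave 79 to 84 members called higher, and the replicate block 107 higher and 7 lower.

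Spindle and cytokinesis genes had the highest median of the 6 lists: 38 of 49 were higher, none lower, and the median log2 fold change was 0.83 against -0.01 over all genes tested. Nusap1, which bundles spindle microtubules near chromosomes, had the largest rise of all genes that met the rule for naming. Its level was 21.7, 24.3 and 20.8 CPM in late G1 libraries 1, 2 and 3 and 117, 113 and 122 in G2, which is 2.40 ± 0.13 higher on the log2 scale (adjusted p 3.98e-09). Each G2 library thus stood far above each late G1 library, and early G1 lay between, at a mean of 45.9 CPM. Aspm, a spindle pole protein that crosslinks microtubule minus ends, had the smallest p of all genes. It went from 122, 130 and 125 CPM to 382, 373 and 401 (log2 fold change 1.62 ± 0.08, adjusted p 1.48e-09), and the libraries of each phase lay within a few percent of their mean. Prc1, which bundles the midzone microtubules on which the cell divides, rose from 100, 80.4 and 104 to 270, 252 and 335 CPM. Fam83d, which brings casein kinase to the spindle, rose by 1.78 ± 0.13 on the log2 scale, and Depdc1a and Depdc1b by 1.51 ± 0.11 and 1.61 ± 0.19. Kinesin motors took part: the midzone kinesin Kif23 rose from 30.0 ± 3.4 to 87.4 ± 4.8 CPM (SD, n = 3) and the bipolar spindle motor Kif11 from 164 ± 17 to 393 ± 35. Arl6ip1, an endoplasmic reticulum protein listed with them, changed by 1.82 ± 0.13.

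**Figure D1:**
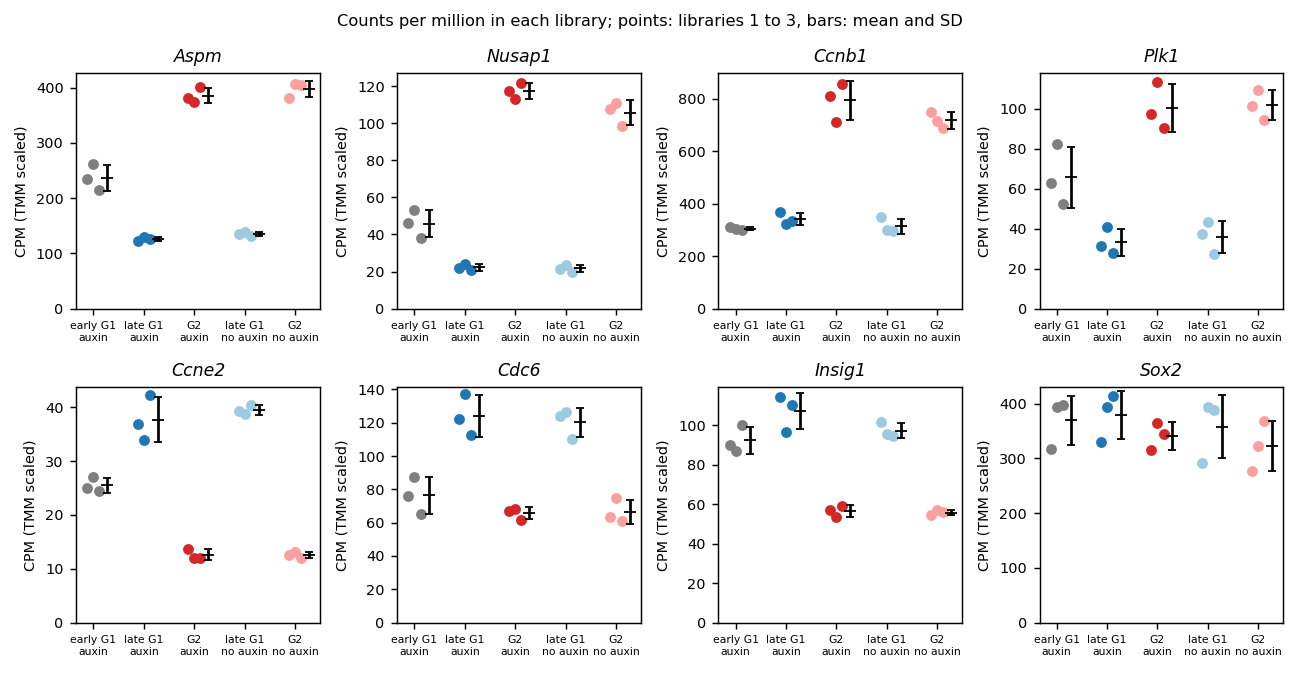
CPM (y axis, from 0) of 8 genes in each library of early G1, late G1 and G2 with auxin and of late G1 and G2 without auxin (x axis); points are libraries 1 to 3 and bars the mean and SD. Aspm, Nusap1, Ccnb1 and Plk1 are higher in every G2 library than in every late G1 library, Ccne2, Cdc6 and Insig1 are lower, and Sox2 overlaps.

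Among the genes of mitotic entry, 9 of 22 were higher and 1 lower (12 and 2 with the replicate block), with a median log2 fold change of 0.24. Ccnb1, which encodes cyclin B1, the activator of Cdk1, stood at 366, 323 and 334 CPM in late G1 and 810, 711 and 857 in G2 (log2 fold change 1.22 ± 0.10, adjusted p 2.03e-07). Unlike Aspm and Nusap1, its early G1 level, a mean of 304 CPM, was below that of late G1. Cdk1 itself rose from 94.1, 74.6 and 97.5 to 227, 188 and 239 CPM. The phosphatases that release Cdk1 moved apart: Cdc25b rose by 1.78 ± 0.18 and Cdc25c by 1.08 ± 0.12, whereas Cdc25a, which also acts at G1/S, fell by 0.46 on the log2 scale (SE 0.11, adjusted p 0.0122, and up to 0.0732 with G2 library 3 left out). Cyclin A2 (Ccna2), active from S phase to early mitosis, rose less than cyclin B1, by 0.42 ± 0.09.

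Of the mitotic kinases, 7 of 17 were higher and none lower (9 higher and 1 lower with the replicate block). Aurka, the Aurora kinase of centrosomes and spindle poles, went from 56.5, 61.4 and 55.6 to 204, 216 and 205 CPM, or 1.85 ± 0.13 higher on the log2 scale (adjusted p 4.98e-08). Plk1, the Polo kinase, stood at 31.2, 40.7 and 27.7 CPM in late G1 and 97.5, 114 and 90.3 in G2. Library 2 was the highest of the 3 in both phases. Aurkb, the Aurora kinase of the chromosomal passenger complex, rose by 1.11 ± 0.15, and the checkpoint kinases Ttk and Bub1 by 0.70 ± 0.11 and 0.44 ± 0.08.

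The anaphase-promoting complex, the ubiquitin ligase that ends mitosis, had 6 of 24 listed genes higher and none lower (11 higher with the replicate block), and the called members with the largest changes are its activators and partners. Ube2c, its ubiquitin-conjugating enzyme, went from 18.6, 23.2 and 18.6 to 64.7, 109 and 70.0 CPM (log2 fold change 2.01 ± 0.26, adjusted p 0.000128). G2 library 2 stood above the other G2 libraries, and all 3 stood above late G1. Fzr1 (Cdh1), the activator of the complex in G1, rose by 1.29 ± 0.11 and was thus higher in G2 RNA than in late G1 RNA. Cdc20, its mitotic activator, went from 197, 233 and 171 to 334, 367 and 321 CPM, with an early G1 mean of 306. Bub3, a checkpoint protein, rose by 1.06 ± 0.10 and Ube2s, which lengthens ubiquitin chains, by 0.45 ± 0.08.

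At the centromere and kinetochore, 19 of 46 were higher and none lower (22 higher and 2 lower with the replicate block), with a median of 0.18. Cenpf, a large outer kinetochore protein, went from 134, 199 and 214 to 650, 644 and 721 CPM (1.88 ± 0.13), and the kinesin Cenpe from 45.7, 62.2 and 62.5 to 162, 165 and 165. In both genes late G1 library 1 was the lowest, while the G2 libraries lay close together. Cenpa, the histone H3 variant that marks centromeres, rose by 1.38 ± 0.10 and Sgol2, a protector of centromeric cohesion, by 1.27 ± 0.09. Condensin, cohesin and related genes had 8 of 26 higher and 1 lower (10 and 2 with the replicate block). Top2a, the topoisomerase that untangles sister chromatids, went from 536, 454 and 574 to 1371, 1171 and 1432 CPM, and the condensin subunit Smc4 rose by 1.26 ± 0.12. The condensin II subunit Ncapg2 moved against them, from 133, 123 and 146 to 93.0, 84.9 and 105 CPM (adjusted p 0.000895). Without G2 library 3 or late G1 library 1 or 2, 5 of the 26 were called higher.

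CHR letters were common in these promoters. RefSeq windows of 300 bases, from 250 before to 50 after the start, were matched by symbol or RefSeq synonym for 70 of the 87 mitotic genes called higher and for 11564 of the 15920 symbols tested. A CHR match (TTTGAA, either strand) was in 65.7% of the 70, against 12.0% of all promoters of tested genes, and a CCAAT match in 82.9% against 39.1%. Over the 155 matched promoters of all tested members of these lists, called or not, the shares were 45.8% and 63.9%. Much of the contrast with all genes was thus shared by the lists as a whole. These letters were not particular to mitotic genes: of the 44 matched promoters of histone genes called lower, 52.3% held a CHR match and 84.1% a CCAAT match, and 8 of 9 promoters of cholesterol genes called lower held CCAAT and none CHR. Over all called genes, CCAAT was in 50.3% of promoters of genes higher in G2 and in 51.6% of those lower. A CHR match was in 28.2% of promoters of genes higher in G2 and in 16.5% of those lower, and in 10.5% of the lower ones once histone genes were left out. An E2F-like match (TTTNNCGC) was in 30.0% of the 30 promoters of replication genes called lower, against 8.57% of all. It was also in 36.4% of the promoters of histone genes called lower and in 14.3% of those of mitotic genes called higher. These shares describe letters in a window and show no binding.

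**Figure D2:**
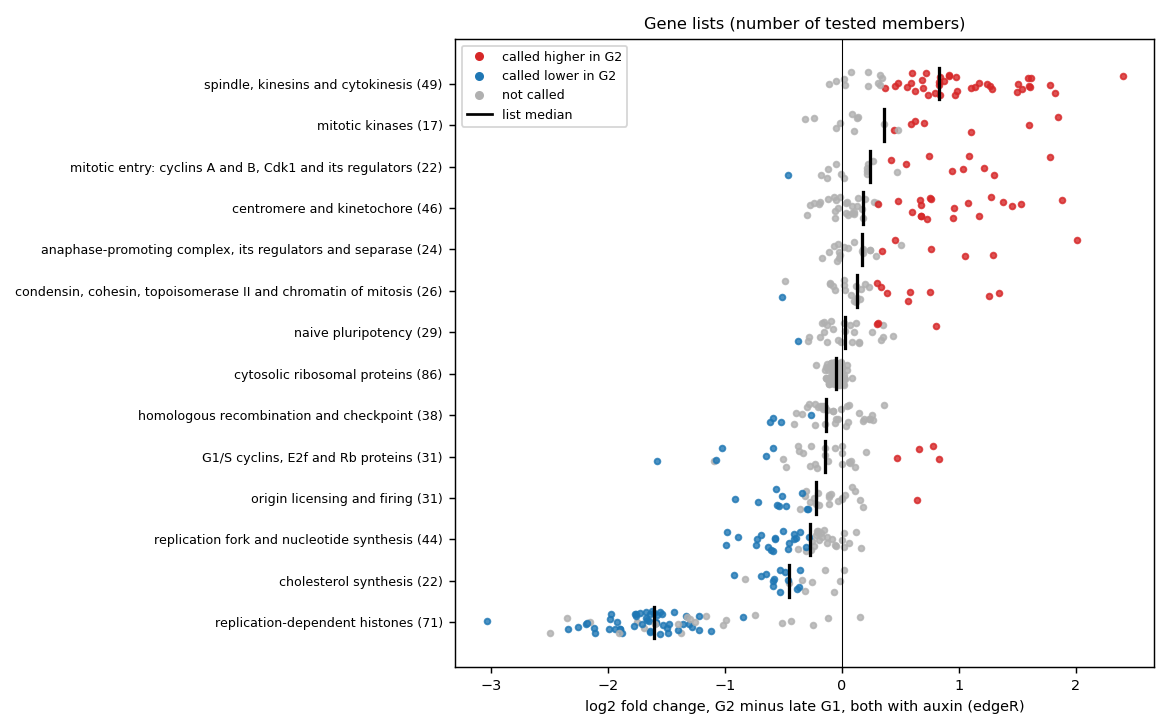
Log2 fold change, G2 minus late G1 with auxin (x axis), of each tested member (point) of 14 gene lists (y axis, number of tested members in brackets), red where called higher in G2, blue where called lower, grey where not called; black bars are list medians. Spindle genes have the highest median (0.83) and histone genes the lowest (-1.61), while ribosomal protein genes lie close to 0.

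Outside the lists, 455 genes rose. The largest rises that met the rule for naming included Prr11, a protein linked to cell-cycle progression, which went from 3.24, 3.53 and 4.14 to 16.2, 18.2 and 18.2 CPM (2.27 ± 0.13), and Sun2, a nuclear envelope protein that ties the nucleus to the cytoskeleton, from 6.91, 6.85 and 8.02 to 20.6, 23.7 and 23.9. Zbtb20, a zinc finger repressor, rose by 1.73 ± 0.34 on counts, from 1.31, 0.963 and 1.96 to 4.11, 4.85 and 5.11 CPM, but on TPM the sign turned (-0.01 with a pseudocount of 1). Gas2l3, which links actin and microtubules (1.40 ± 0.09), the ubiquitin ligase G2e3 (1.42 ± 0.09), Arhgap19 (1.35 ± 0.10) and Hn1 (1.29 ± 0.11) were picked after their values were seen. Kpna2, an importin that carries cargo into the nucleus, was the 1 called member of 24 nuclear envelope and importin genes (4 higher and 1 lower with the replicate block), at 278, 210 and 260 CPM in late G1 and 730, 596 and 715 in G2.

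Genes of the actin cytoskeleton were also higher in G2, a group put together after the values were seen, so that its make-up supports nothing: 13 of 20 were higher (against 3.48% of all genes tested) and none lower. Several of these calls depended on single libraries. Of the 6 fits without 1 library, Zyx lost its call in 5, Vcl, Flna and Thbs1 in 4, Lmod1 and Srf in 3 and Fhl2 in 2. Myl9, Tagln, Tpm1, Cnn2, Smtn and Wdr1 kept theirs in all 6. Myl9, a myosin light chain, rose by 1.54 ± 0.19 (adjusted p 3.47e-05), Tagln, an actin-binding protein of contractile cells, from 12.4, 9.60 and 13.8 to 24.1, 21.6 and 34.5 CPM (1.16 ± 0.24), and the tropomyosin Tpm1 by 0.68 ± 0.09. Cnn2, a calponin, and Smtn, smoothelin, rose by 0.68 ± 0.10 and 1.07 ± 0.22. Srf, the transcription factor that drives many such genes, rose by 0.56 ± 0.13 (adjusted p 0.0142, and up to 0.0786 without late G1 library 1). The cytoplasmic actins did not pass the test: Actb changed by 0.18 ± 0.15 and Actg1 by 0.21 ± 0.13. With the replicate block Actg1 passed and Actb did not. Malat1, an abundant nuclear non-coding RNA also chosen after its values were seen, was at 3165 ± 620 CPM in late G1 and 6090 ± 549 in G2 (SD, n = 3; log2 fold change 0.94 ± 0.22, adjusted p 0.0169, and 0.0811 without late G1 library 1).

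Among the gene lists, the deepest falls were those of the replication-dependent histone genes, whose short, mostly intronless transcripts are made in S phase to package newly copied DNA. Of 71 tested, 50 were lower in G2 (against 2.43% of all genes tested) and none higher, with a median log2 fold change of -1.61. With the replicate block 62 were lower. All 15 of the largest falls that met the rule for naming were histone genes. Because these genes are near-identical copies among which the authors' estimated counts divide reads, single members are uncertain and sums over classes were used. Histone genes held 0.791%, 1.66% and 1.32% of all counts in late G1 libraries 1, 2 and 3 and 0.289%, 0.609% and 0.463% in G2. Library 1 was the lowest and library 2 the highest in both phases and the groups did not overlap. Between libraries of the same number, late G1 exceeded G2 by 2.74, 2.73 and 2.86 times (exact permutation p 0.1, the smallest possible, over the 3 against 3 shares).

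The mean share was lower in G2 for each class. Late G1 over G2 was 3.19 for H2B, 2.99 for the linker histone H1, 2.94 for H2A, 2.81 for H3 and 2.52 for H4, as ratios of mean shares. The exact permutation p was 0.1 in H1, H2A, H2B and H4 and 0.2 in H3, where late G1 library 1 (0.0964% of counts) was just below G2 library 2 (0.0986%). This test does not use the replicate numbers. Between H3 shares of the same number, late G1 exceeded G2 by 2.70, 2.69 and 3.07 times. Early G1 libraries with auxin held 0.401%, 0.432% and 0.403% of counts in histone genes, close to the G2 levels, so that late G1 was the high fraction of the 3. Among single genes with smaller p-values, Hist1h4h was at 569, 753 and 787 CPM in late G1 and 226, 312 and 331 in G2, and the linker histone gene Hist1h1a at 474, 818 and 780 against 162, 248 and 254. Hist1h2ba, which encodes a germline H2B, was low throughout and had the deepest fitted change of the list, from 2.33, 2.64 and 2.07 to 0.198, 0.511 and 0.128 CPM. The number of histone genes called depended on the libraries: it was 33 without G2 library 1, 31 without late G1 library 2 and 10 when the other groups did not share their estimate of spread. On log2(TPM + 1) it was 16.

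**Figure D3:**
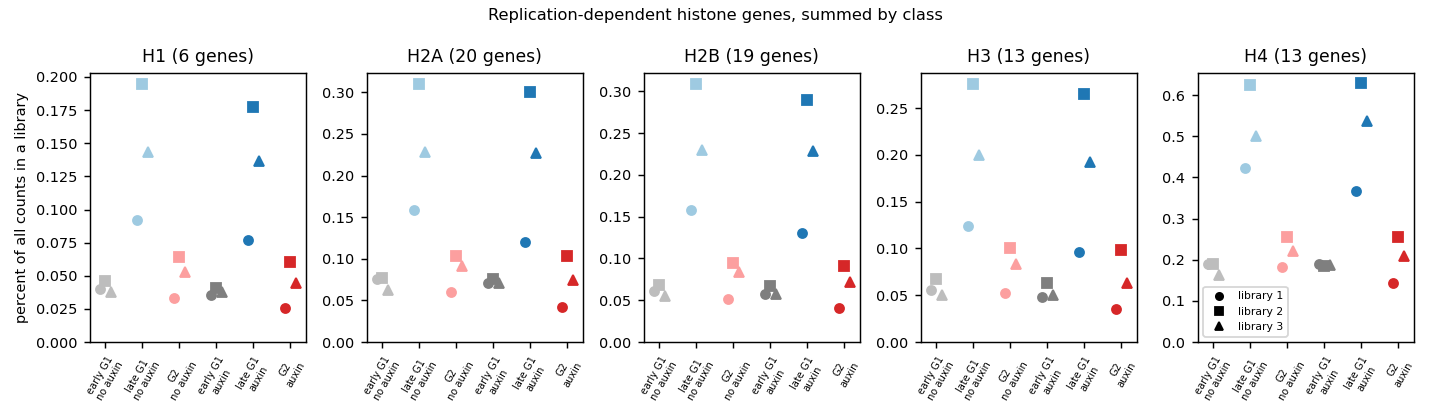
Percent of all counts in a library (y axis, from 0) held by replication-dependent histone genes, summed by class, in the 6 groups of early G1, late G1 and G2 without and with auxin (x axis); each symbol is 1 library and its shape gives the replicate number. In each class the late G1 groups are the highest, and library 1 is the lowest and library 2 the highest of late G1 and of G2.

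Genes that copy DNA were the next large group with lower members. In 3 lists for origin licensing and firing, the replication fork with nucleotide synthesis, and homologous recombination, 34 of 113 tested members were lower in G2 (against 2.43% of all genes) and 1 higher. Leaving out 1 library gave 19 to 25 members lower: 24, 23 and 21 without G2 library 1, 2 or 3 and 19, 25 and 25 without late G1 library 1, 2 or 3. With the replicate block 55 were lower and 7 higher. On log2(TPM + 1), 8 were called lower and 1 higher. The lists together held 1.27%, 1.30% and 1.22% of counts in late G1 and 1.05%, 1.11% and 1.01% in G2.

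In origin licensing and firing, 10 of 31 were lower, 16 with the replicate block and 6 without G2 library 2 or 3 or late G1 library 1. Cdc6, which loads the Mcm helicase on origins, stood at 122, 137 and 113 CPM in late G1 and 67.2, 68.1 and 61.6 in G2 (log2 fold change -0.92 ± 0.12, adjusted p 6.31e-05). Cdc45 and Gins2, partners of Mcm in the active helicase, changed by -0.71 ± 0.10 and -0.56 ± 0.09, and the helicase subunit Mcm4 by -0.54 ± 0.10. Mcm5 passed only narrowly, from 687, 669 and 655 to 541, 515 and 535 CPM (-0.34 ± 0.09, adjusted p 0.0333), and its adjusted p was 0.0647 to 0.122 with any 1 library left out. Mcm2 (-0.36 ± 0.14, adjusted p 0.167) did not pass in the main fit but did with the replicate block (adjusted p 3.4e-05). Cdt1, the partner of Cdc6 whose protein is destroyed in S phase, did not pass the test, at 83.7, 103 and 86.4 CPM in late G1 and 78.7, 114 and 74.4 in G2 (-0.03 ± 0.15), and the groups overlapped. Dbf4, the activator of the Cdc7 kinase that fires origins, went the other way, from 109, 103 and 109 to 165, 156 and 180 CPM (0.64 ± 0.07, adjusted p 8.87e-06).

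At the replication fork, 20 of 44 were lower and none higher, with a median of -0.28, and 12 were lower without G2 library 3 and 11 without late G1 library 1. Chaf1b, a chaperone that places histones on new DNA, went from 60.2, 59.7 and 65.4 to 29.4, 29.7 and 34.5 CPM (-0.99 ± 0.09), and Ung, which removes uracil from DNA, from 113, 118 and 108 to 60.9, 56.0 and 54.2. Slbp, which binds the stem-loop of histone messages, changed by -0.89 ± 0.10, the sliding clamp Pcna by -0.72 ± 0.09, the ribonucleotide reductase subunit Rrm2 by -0.74 ± 0.14 and the single-strand binding protein Rpa2 by -0.59 ± 0.08. In homologous recombination, 4 of 38 were lower (2 without late G1 library 1, and 10 lower and 6 higher with the replicate block), among them Brca1, from 139, 143 and 129 to 91.1, 90.7 and 86.7 CPM, and the nuclease Exo1, from 161, 157 and 158 to 109, 109 and 113. Early G1 lay below both phases for 24 of the 34 replication genes called lower and between them for 10.

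Of 31 genes of the G1/S switch, 5 were lower and 4 higher, against 2.43% and 3.48% of all genes tested. Without G2 library 2 or 3 or late G1 library 1 or 2, 2 were called higher. With the replicate block 12 were lower and 5 higher. Ccne2 (cyclin E2) went from 37.0, 33.9 and 42.2 to 13.7, 11.9 and 12.1 CPM, the deepest change outside the histones among the genes that met the other conditions for naming (-1.58 ± 0.10, adjusted p 1.44e-08). Ccne1 (cyclin E1) went from 198, 216 and 188 to 96.8, 104 and 95.3 CPM, and Cdk2, the kinase they activate, from 62.1, 71.6 and 72.4 to 42.1, 43.0 and 51.5. The Cdk inhibitors moved the other way: Cdkn1b (p27) rose from 12.1, 11.8 and 12.5 to 19.5, 23.2 and 22.2 CPM, and Cdkn2d (p19) by 0.66 ± 0.15. Tcf19, a chromatin factor of the G1/S transition, and Fam111a, a protease at replication forks, changed by -1.25 ± 0.14 and -1.12 ± 0.15 and were named after their values were seen.

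Many cholesterol synthesis genes were lower in G2: 13 of 22 were called (against 2.43% of all genes tested) and none was higher, with a median log2 fold change of -0.46. Insig1, which retains the sterol sensor in the endoplasmic reticulum and is itself a target of SREBP, the factor that switches these genes on, went from 114, 96.9 and 110 to 57.0, 53.3 and 59.3 CPM (-0.92 ± 0.08, adjusted p 6.33e-07). Idi1, Fdft1 and Lss, enzymes between mevalonate and the sterol ring, changed by -0.53 ± 0.09, -0.58 ± 0.10 and -0.49 ± 0.09, and the sterol carrier Stard4 by -0.65 ± 0.11. The 22 genes held 0.138%, 0.137% and 0.145% of counts in late G1 and 0.0976%, 0.111% and 0.107% in G2, without overlap (exact permutation p 0.1, the smallest possible). All 13 called genes had an early G1 level between the 2 phases. On log2(TPM + 1), 3 of the 22 were called. Leaving out 1 of the 6 libraries gave 9 to 14 members lower. Leaving out all libraries numbered 1, 2 or 3 gave 1, 5 and 11.

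Of 18 genes of fatty acid and lipid metabolism, looked up after the values were seen, 11 were lower (against 2.43% of all genes tested) and none higher. Scd2, a stearoyl-CoA desaturase, went from 352, 368 and 337 to 199, 208 and 164 CPM (-0.89 ± 0.09, adjusted p 5.1e-06), and Scd1 from 55.1, 54.1 and 64.5 to 29.1, 34.1 and 38.8. The desaturase Fads2 (-0.49 ± 0.15, adjusted p 0.0665), the fatty acid synthase Fasn (-0.42 ± 0.20, adjusted p 0.277) and the carboxylase Acaca (-0.10 ± 0.10, adjusted p 0.641) did not pass, nor did Srebf2, which encodes the SREBP of cholesterol genes (-0.07 ± 0.17). With the replicate block Fads2 and Fasn passed, and Acaca and Srebf2 did not. The other SREBP gene, Srebf1, was among those called lower, but lost its call in 4 of the 6 fits without 1 library. Slc2a1, the glucose transporter Glut1, was the 1 member called of 19 glycolysis genes, from 262, 291 and 291 to 178, 202 and 193 CPM, and with the replicate block 10 of the 19 were lower.

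Other groups had few calls, to be read beside the 3.48% of all genes tested that were higher and the 2.43% that were lower. Of 29 naive pluripotency genes, 3 were higher and 1 lower (7 and 3 with the replicate block): the adhesion molecule Pecam1 rose from 41.1, 39.5 and 39.3 to 72.3, 67.5 and 70.3 CPM (0.81 ± 0.06, adjusted p 1.15e-07), while Zfp42 (Rex1, 0.31 ± 0.09), Jam2 (0.30 ± 0.07) and Tdh (-0.38 ± 0.11) passed narrowly, with adjusted p up to 0.189 without late G1 library 2, 0.0668 without G2 library 1 and 0.221 without late G1 library 2. Of 27 p53 targets, 5 were lower (2 without G2 library 3 and 3 without late G1 library 1, 11 with the replicate block), among them the stress genes Ddit4 (-0.59 ± 0.11) and Gdf15 (-0.85 ± 0.17), and the 1 higher, Ckap2 (0.72 ± 0.10), encodes a spindle protein and is in the spindle list as well. Of 24 immediate early genes, 3 were higher, led by Klf6 (0.96 ± 0.14), and 2 lower, with 5 and 4 in the replicate block. Without G2 library 3 none was called lower, and without G2 library 2 or late G1 library 1, 1 was; in each of these 3 fits 2 were higher. None of the tested members was called in the lists for formative pluripotency (23), trophectoderm (13), primitive endoderm (14), mesoderm (8), neural genes (5), heat shock and unfolded protein response (23), housekeeping (15), aryl hydrocarbon receptor targets (6), cytosolic ribosomal proteins (86) and the mitochondrial genome (15). In primitive endoderm all 14 had a positive log2 fold change, with a median of 0.46, and the list's summed level was 19.6 to 27.1 TPM in late G1 and 22.7 to 30.0 in G2, which overlap. With the replicate block, 4 of these 14 were called higher, 5 formative genes higher and 4 lower, 1 trophectoderm gene higher and 3 lower, 2 mesoderm genes lower and 1 neural gene higher. In the same fit 3 heat shock genes were higher and 1 lower, 2 housekeeping genes lower, 1 aryl hydrocarbon receptor target higher and 1 mitochondrial gene lower, while ribosomal protein genes had no call. Of 10 tested genes of the 2-cell-like state, a rare state of ES cells, Zscan4e and Dub3 were higher, at adjusted p 0.042 and 0.0436 and up to 0.147 and 0.157 without G2 library 1, and 4 of the 10 were with the replicate block. Their median log2 fold change was 0.58, 8 of 10 were positive, and the list's summed level was 2.57 to 2.86 TPM in late G1 and 3.39 to 4.98 in G2, without overlap.

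Without auxin, the same comparison gave 436 genes higher (2.72%) and 371 lower (2.32%) in G2, and 1294 (8.08%) and 1247 (7.79%) with the replicate block. The 2 comparisons share no library, although all 18 libraries share the estimate of spread. Of the 946 genes called with auxin, 587 were also called without it, each with the same sign, which is 62.1% of the calls with auxin and 72.7% of the 807 without. The sign was the same for 937 of the 946 (99.0%), and Pearson's r of the log2 fold changes across these 946 genes was 0.857, and 0.504 across all genes tested, as descriptions across genes, which are not independent replicates. In the test of the difference between the 2 changes, 0 of 16011 genes passed (smallest adjusted p 0.99991). At an unadjusted p under 0.05 there were 218 (1.36%), a smaller share than this threshold would give if no gene differed. The test was thus conservative here, and its 0 calls do not show that the 2 changes are equal. With the replicate block 498 genes were under 0.05 unadjusted and 0 passed, and DESeq2 called 0 as well. The test had limited reach: in simulated libraries it found 49% of genes whose change differed 2-fold and 9% of those that differed 1.5-fold, against 69% and 30% for G2 against late G1 with auxin. The simulated libraries were drawn independently, whereas real libraries of the same number deviated together, so these shares may differ in the real data.

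For 6 genes of the main groups, the difference was about the size of its error or less. The rise in G2 was larger with auxin than without it by 0.06 ± 0.11 on the log2 scale for Aspm, by 0.11 ± 0.18 for Nusap1 and by 0.02 ± 0.14 for Ccnb1, and the difference was 0.07 ± 0.14 for Ccne2, -0.06 ± 0.17 for Cdc6 and -0.12 ± 0.12 for Insig1 (with auxin minus without, ± SE). Histone genes together were 2.78 times higher in late G1 than in G2 with auxin and 2.59 times without it. The difference was ranked among genes with a mean log2 CPM of at least 1, leaving out gene models with Gm, Rik or AC names. Of those whose change was more positive with auxin, Kitl, the Kit receptor ligand, had the smallest unadjusted p. It rose in G2 with auxin, from 2.16, 2.00 and 1.92 to 2.92, 3.38 and 3.76 CPM (0.72 ± 0.17, adjusted p 0.0151, and 0.0731 without G2 library 3). Without auxin it changed by -0.31 (difference 1.03 ± 0.25, unadjusted p 0.000548), a difference that does not pass the adjustment. Msc, a helix-loop-helix repressor, rose by 0.83 ± 0.09 with auxin and 0.45 without (difference 0.39 ± 0.12, unadjusted p 0.00637). Of the genes whose change was more negative with auxin, Tomt had the smallest unadjusted p. It changed by -0.95 ± 0.26 with auxin and 0.31 without (difference -1.26 ± 0.37, unadjusted p 0.0030). Neither difference passes the adjustment.

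**Figure D4:**
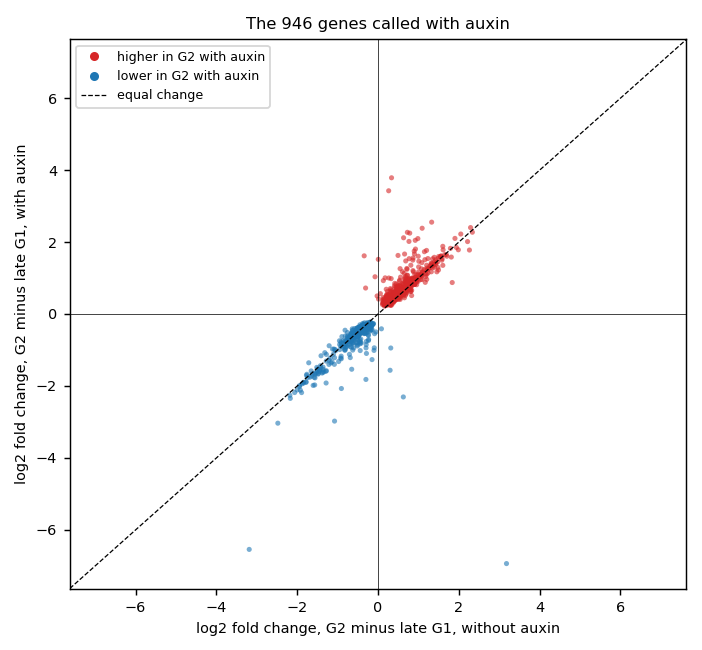
Log2 fold change, G2 minus late G1, without auxin (x axis) and with auxin (y axis) of the 946 genes called with auxin (points, red where higher in G2 and blue where lower); the dashed line marks equal change. The sign is the same for 937 genes, and the 2 lowest points are genes with no counts in any G2 library with auxin, whose fitted change is not a measured size.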

How the data were processed

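RNA from sorted cells was sequenced after ribosomal RNA depletion. Per the submitters' processing notes, STAR, RSEM and the mouse build mm9 were used, with no versions. The authors deposited 1 table of estimated counts per gene, which hold whole numbers as deposited, and 1 of TPM, in which the authors scaled by length and library. Libraries were grouped by their labels, and no column of per-sample values was left unused (0 columns).

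The main test was edgeR 4.0.16 (R 4.3.3): TMM scaling, the default low-count filter, a model of group means over all 18 RNA libraries (12 residual degrees of freedom, biological coefficient of variation 0.142), a robust quasi-likelihood fit and Benjamini-Hochberg adjustment over 16011 genes at 0.05. SE is the log2 fold change divided by the square root of F. Alternatives were DESeq2 1.42.0, limma 3.58.1 on log2(TPM + 1) and log2(TPM + 0.1), other scalings and filters, and leaving out libraries. Total counts were 24841963 to 37587322 over the 18 libraries, and intervals were not computed from reads. Counts of 2 libraries of a group differed by more than sampling noise (chi-square per degree of freedom 14.7 to 53.8), so each counted as 1 sample.

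Same-numbered G2 and late G1 libraries with auxin deviated together from their group means (correlations 0.277, 0.292 and 0.292). On this evidence from the data, the numbers were taken as pairs in the fit with the replicate block only. The main fit, with the adjusted p and SE given for single genes, and the permutation tests leave the pairing out. The fit with the replicate number as a block is given beside counts it moved by over 1.5 times.

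Named genes were the 15 largest rises and 15 largest falls among called genes without overlap in CPM and with a mean log2 CPM of at least 1, leaving out unnamed gene models, up to 5 called members of each list with the smallest p, up to 5 each way of the difference with and without auxin, and genes that check the sort. Genes outside this rule were chosen after their values were seen. Some genes that met the rule are not reported here. The members and lists were chosen with earlier results of these data known. Promoter letters came from RefSeq (GRCm38.p6), a different build from the authors', and 72.6% of the tested symbols matched an entry. The scripts were tested on simulated data with 200 changed genes, where the fit with auxin called 4 unchanged genes of 16011 and none when no gene was changed.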

Additional observations from a re-analysis of the deposited data

How the results depend on the processing

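The 946 calls between G2 and late G1 with auxin moved by under 1.5 times with DESeq2 (1298), RLE size factors, no low-count filter (716), a stricter filter or the 3 most abundant genes left out. They became 186 and 194 on log2(TPM + 1) and log2(TPM + 0.1), 451 with only the compared groups in the fit, and 578 to 801 leaving out 1 library. Leaving out all libraries of 1 number gave 255 (number 1), 270 (number 2) and 669 (number 3). The cause was not tested, other than that fits without libraries hold fewer samples. Without auxin the 807 calls became 207 and 193 on TPM, 341 with only the compared groups, 457 to 639 without 1 library, 234, 215 and 580 without the libraries numbered 1, 2 or 3, and 503 without the untreated libraries numbered 3. The alternatives for the untreated comparison and those that leave out a number were added after seeing the data. The difference with and without auxin had 0 calls in every setting run. Of 164 called genes followed individually, the block, DESeq2, RLE, the stricter filter and the fit without the 3 most abundant genes kept all, TPM with a pseudocount of 1 kept 76, and fits without 1 of the 6 libraries kept 126 to 146. The sign turned only for Zbtb20, on TPM (-0.0096 with a pseudocount of 1 and -0.082 with 0.1), and the cause was not tested.

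With the replicate block, calls rose to 2833 with auxin and 2541 without it. Of the 18 same-numbered pairs among these 4 groups, 17 correlated at over 0.1 (0.121 to 0.465), and the exception was G2 number 2 with and without auxin (0.0528). For the difference the pairing was therefore not taken as given, and the replicate block gave 0 calls there (498 genes at an unadjusted p under 0.05).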
